A study of Mus musculus with 60 samples.

Results

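The integrated stress response and the unfolded protein response were followed through 38 genes, of 48440 genes in each count table, in mouse cancer-associated fibroblasts (CAFs). The genes were matched by symbol, and all 38 were found in the 3 tables. They fall into 5 roles. The ATF4 arm is represented by 9 regulators and effectors, amino acid synthesis by 8 enzymes and amino acid transport by 6 carriers. The endoplasmic reticulum (ER) is represented by 10 chaperones and folding factors, and by 5 regulators and degradation factors of the unfolded protein response. The 14 genes of amino acid synthesis and transport are called the ATF4 amino acid genes below, and they are set beside the 10 ER chaperone genes.

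In the integrated stress response, kinases that sense amino acid shortage, ER stress and other insults phosphorylate the translation factor eIF2, which slows protein synthesis while translation of the Atf4 messenger RNA rises. The ATF4 protein then raises transcription of genes for amino acid synthesis and uptake, and of regulators such as CHOP, the product of Ddit3. The unfolded protein response adds XBP1 and ATF6, which raise ER chaperones and ER-associated degradation. Fibroblasts secrete collagen, a protein rich in glycine and proline that is folded in the ER. Since ATF4, XBP1 and ATF6 are also regulated in translation, splicing and cleavage, counts of their messenger RNA do not measure their activity.

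The CAFs, which the labels call tCAFs without explaining the prefix, were grown with 1 of 2 mouse lung adenocarcinoma lines or alone. Of these, 344SQ is known to metastasise in mice and 393P to do so poorly. Multicellular aggregates, in which the cells share 1 culture, gave 3 libraries of CAFs with 393P cells, 3 of CAFs with 344SQ cells and 3 of CAFs alone. The sample titles of the aggregates of CAFs alone name the cells CAF-GFP. Further aggregates held CAFs with 344SQ cells carrying an shRNA against Zeb1 (shZEB1, 3 libraries) or a control shRNA (shCTL, 3 libraries). In the Boyden chamber, where a membrane keeps the cell types apart, 5 biological replicates of CAFs with 393P cells, 5 with 344SQ cells and 5 of CAFs alone each gave 3 technical libraries, which were summed. Per the labels' protocol, the CAFs of every group were sorted by flow cytometry and then lysed. The labels give neither the source animals of the CAFs nor the number of isolates, hairpins or clones, so the p-values measure the spread between these samples.

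The promoters of some of the genes hold known response elements, of which a few are shown. Promoters, from 250 bases before to 50 bases after a gene's start, were taken from RefSeq (GRCm38.p6) and were found for 34 of the 38 genes. The ER stress element, written as CCAAT and CCACG separated by 9 bases and searched on both strands, was found in 5 of 8 ER chaperone genes with a promoter. It was found in none of the genes of the other roles, and in 0.137% of all 27025 genes with a promoter. Capitals mark the paired letters in these chaperone promoters:
Hspa5: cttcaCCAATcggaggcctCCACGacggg
Pdia6: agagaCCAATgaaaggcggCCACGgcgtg
Creld2: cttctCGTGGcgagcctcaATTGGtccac
Calr: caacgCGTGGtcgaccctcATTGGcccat
These stretches lie at chr2:34772020-34772048 (plus strand) for Hspa5, chr12:17266486-17266514 (plus strand) for Pdia6, chr15:88819515-88819543 (plus strand) for Creld2 and chr8:84847070-84847098 (minus strand) for Calr, all upstream of the RefSeq start. The GENCODE annotation starts Hspa5 further upstream, so that its stretch lies inside the GENCODE gene. Creld2 and Calr hold the element in reverse, and Hsp90b1 holds it at 2 places. The second ER stress element was found in Herpud1 alone among the 34 genes, and in 0.0444% of all genes.

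The ATF4 composite element was searched on both strands as TGATGNAA and in the strict form TTGCATCA, which lies on the same site wherever both were found. The looser form was found in 4 of 9 ATF4 regulators and effectors and in 3 of 13 ATF4 amino acid genes with a promoter. It was found in 0 of 8 ER chaperone genes and in 1 of 4 regulators and degradation factors of the unfolded protein response, against 4.51% of all genes. The strict form was found in Chac1, Nupr1, Vldlr, Pycr1, Slc1a4 and Herpud1, against 1.03% of all genes. The element is in capitals in 5 promoters, printed 5′ to 3′ along the gene, of which Asns holds the looser form alone:
Chac1: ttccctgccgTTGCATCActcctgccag
Nupr1: aagggccagaTTGCATCAgacagggctt
Vldlr: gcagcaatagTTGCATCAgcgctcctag
Pycr1: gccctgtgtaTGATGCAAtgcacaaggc
Asns: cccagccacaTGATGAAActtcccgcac
They lie at chr2:119351039-119351066 (plus strand) for Chac1, chr7:126625563-126625590 (minus strand) for Nupr1, chr19:27216810-27216837 (plus strand) for Vldlr, chr11:120643834-120643861 (minus strand) for Pycr1 and chr6:7693215-7693242 (minus strand) for Asns, upstream of the RefSeq start in each. The stretches of Nupr1, Vldlr and Asns lie inside the gene as GENCODE annotates it, which starts further upstream. The unfolded protein response element TGACGTGG was found in none of the 34 genes and in 0.714% of all genes. A match describes letters in this window and is not a measured binding site.

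**Figure D1:**
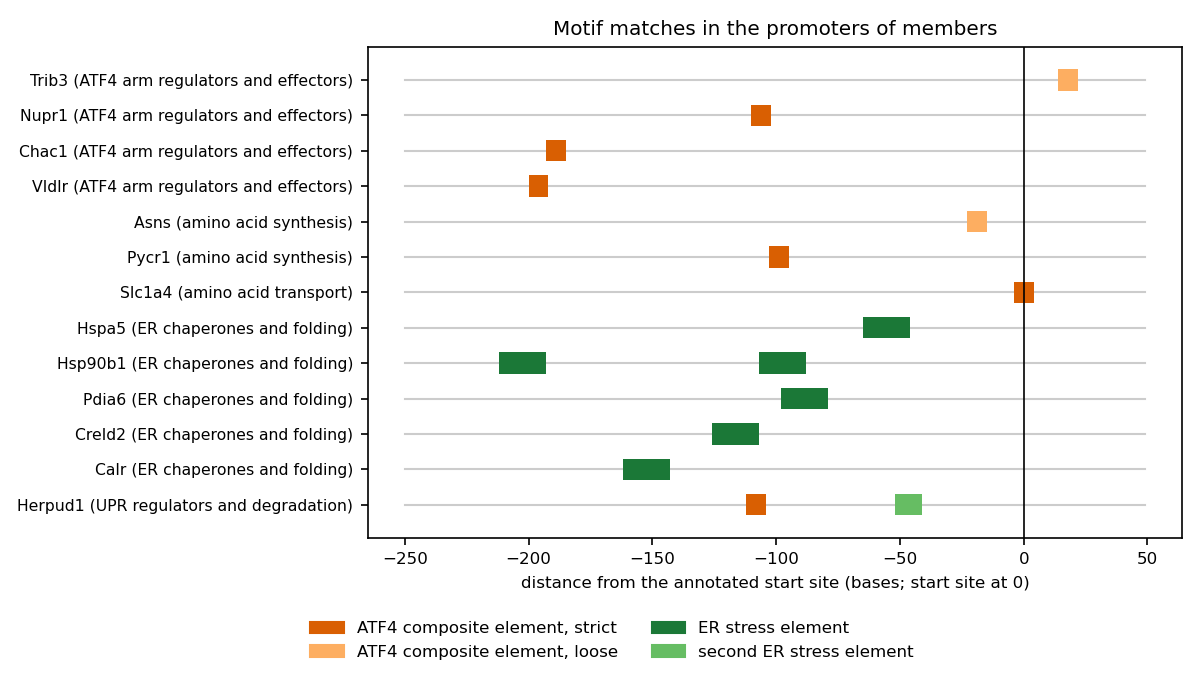
Positions of ATF4 elements and ER stress elements (symbols) in the promoters of the stress response genes that hold one, in bases from the gene's start; genes run down the page by role. ER stress elements appear in 5 ER chaperone genes, and ATF4 elements in none of these.

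Aggregate libraries held 757717 to 1258751 counts, shRNA libraries 739530 to 2144803 and Boyden sums 4182944 to 8542262, and the biological coefficient of variation was 16.2%, 61.7% and 8.58% in these tables. Fibroblast markers were present throughout, although Lum was at 0 in the aggregates with 393P cells and of CAFs alone. Carcinoma markers summed to 19 to 95.8 CPM (counts scaled to a common library size) with 393P cells, 13.8 to 27.5 CPM with 344SQ cells and 7.09 to 13.2 CPM in CAFs alone in the aggregates, and Ptprc, the pan-leukocyte marker, was at 0 in all 9. Counts of Atf5, Ddit3, Ppp1r15a, Psph, Shmt2, Slc6a9, Hsp90b1, Dnajb9, Pdia6 and Manf are uncertain, since their exons overlap a gene on the opposite strand and the strand setting of the counting is not given in the sources used here. In such bulk samples, fewer cells of a type and less RNA per cell cannot be told apart.

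In the aggregates with 393P cells, 5 of the 33 genes tested fell and 0 rose, against 5.27% of all 7992 genes lower and 5.41% higher than in CAFs alone. Of the 5, 4 were among the 12 ATF4 amino acid genes tested (median log2 change -0.66, 11 of 12 below 0), and 1 was among the 7 ATF4 regulators and effectors (median -0.53). None of the 9 ER chaperone genes tested passed the threshold of an adjusted p under 0.05 (median 0.11, 8 of 9 above 0), against a median of 0 over all genes. Trib3, Chac1, Phgdh, Mthfd2 and Sdf2l1 had too few counts to be tested in the aggregates. All p-values are from edgeR's quasi-likelihood test, adjusted over all genes by Benjamini-Hochberg, and levels are TMM-scaled CPM.

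Serine synthesis was represented among the genes that fell by Psat1 alone, and proline synthesis by Aldh18a1 alone. Psat1, the second enzyme of serine synthesis (chromosome 19, positions 15904678 to 15947337, mm10), had 9.38, 24.6 and 10.4 CPM with 393P cells, against 25.9, 41 and 60.6 CPM in CAFs alone. The groups did not overlap, but the closest libraries were 24.6 CPM with 393P cells and 25.9 CPM alone. Psat1 fell by 1.46 ± 0.35 on the log2 scale (SE, n = 3 each, adjusted p = 0.00468 by edgeR). Without replicate 3 of CAFs alone its log2 change was -1.10 and the adjusted p 0.0867. Aldh18a1, which opens proline synthesis from glutamate, had 40.3, 35.7 and 39.7 CPM with 393P cells, against 66.3, 120 and 73.2 CPM in CAFs alone. All 3 libraries with 393P cells lay within 5 CPM of each other and below every library of CAFs alone. Aldh18a1 fell by 1.14 ± 0.23 (SE, adjusted p = 0.000833, edgeR).

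The other synthesis genes did not pass the test, although the 6 tested had a median of -0.68. Psph, the last enzyme of serine synthesis, was the only one of them above 0 (log2 change 0.34). It had 15, 7.93 and 2.09 CPM with 393P cells, against 5.17, 6.61 and 8.36 CPM in CAFs alone. Asns, asparagine synthetase, had 13.1, 21.4 and 10.4 CPM with 393P cells, against 10.3, 35.7 and 14.6 CPM in CAFs alone. Its groups overlapped, with a log2 change of -0.33 ± 0.43 (adjusted p = 0.753, edgeR). Shmt2, the mitochondrial enzyme that turns serine into glycine, had 28.1, 65.8 and 34.5 CPM with 393P cells, against 42.2, 72.7 and 81.5 CPM in CAFs alone. It passed the test only when replicate 2 of the 393P group was left out (log2 change -1.05, adjusted p = 0.0171, edgeR).

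Among the carriers, Slc1a4, which takes up serine, alanine and other small neutral amino acids, had 15, 35.7 and 33.4 CPM with 393P cells, against 67.2, 47.6 and 57.5 CPM in CAFs alone. The groups did not overlap, and Slc1a4 fell by 1.04 ± 0.27 (SE, adjusted p = 0.00927, edgeR). Its adjusted p was 0.0812 without replicate 1 of the 393P group, 0.0691 without replicate 1 of CAFs alone and 0.0553 with DESeq2. Slc7a5, the light chain of the leucine and glutamine exchanger LAT1, had 16.9, 22.2 and 13.6 CPM with 393P cells, against 25, 43.6 and 38.7 CPM in CAFs alone. It fell by 0.98 ± 0.32 (SE, adjusted p = 0.0424, edgeR), again with no overlap. This call rested on several libraries, since the adjusted p was 0.107 and 0.153 without replicates 1 and 3 of the 393P group, 0.168 and 0.143 without replicates 2 and 3 of CAFs alone, and 0.182 with DESeq2. Slc3a2, the heavy chain shared by LAT1 and other exchangers, had 100, 103 and 112 CPM with 393P cells, against 111, 114 and 129 CPM in CAFs alone, and was not called. Slc38a2, the sodium-coupled carrier of glutamine and alanine, had 268, 277 and 272 CPM with 393P cells, against 409, 316 and 388 CPM in CAFs alone. Its groups did not overlap, yet the log2 change of -0.45 missed the threshold (adjusted p = 0.0883, edgeR). Slc7a1, the arginine and lysine carrier, was not called in the full fit and passed without replicate 2 of the 393P group (log2 change -1.08, adjusted p = 0.0159, edgeR) and without replicate 1 of CAFs alone (-1.01, adjusted p = 0.0141).

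Of the regulators and effectors, Vldlr, a lipoprotein receptor known as an ATF4 target, had 59.1, 32.5 and 57.5 CPM with 393P cells, against 150, 88.5 and 110 CPM in CAFs alone. It fell by 1.25 ± 0.23 (SE, adjusted p = 0.000251, edgeR), with no overlap, and kept its call under every alternative run. Atf4 itself had 122, 94.4 and 111 CPM with 393P cells, against 128, 153 and 109 CPM in CAFs alone. The ranges overlapped, and the log2 change was -0.25 ± 0.17 (adjusted p = 0.46, edgeR). Ddit3, which encodes the stress transcription factor CHOP, had 19.7, 9.52 and 10.4 CPM with 393P cells, against 23.3, 19.8 and 13.6 CPM in CAFs alone, and was not called (-0.53 ± 0.39, adjusted p = 0.489, edgeR). Chac1, an enzyme that breaks down glutathione (chromosome 2, positions 119351229 to 119354381, mm10), had 0, 1 and 1 counts with 393P cells, against 11, 3 and 2 counts in CAFs alone. These counts are too low for a test within the aggregate table.

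None of the ER genes tested was called, against 5.41% of all genes higher and 5.27% lower. So few genes could pass at these shares that the lack of calls does not set the ER genes apart. Of the 9 ER chaperone genes, 4 had an unadjusted p under 0.05 (edgeR), against 1747 of all 7992 genes. Hspa5, the main ER chaperone BiP, had 317, 324 and 318 CPM with 393P cells, against 356, 317 and 275 CPM in CAFs alone, a log2 change of 0.01 ± 0.15 (adjusted p = 0.977, edgeR). Calr, the lectin chaperone calreticulin, had 446, 468 and 500 CPM with 393P cells, against 361, 365 and 343 CPM in CAFs alone. Although these groups did not overlap, the log2 change of 0.40 ± 0.15 missed the threshold (adjusted p = 0.0971, edgeR). Pdia6, a protein disulfide isomerase, had 29.1, 31.7 and 33.4 CPM with 393P cells, against 20.7, 21.1 and 11.5 CPM in CAFs alone, with 0.82 ± 0.31 (adjusted p = 0.0883, edgeR) and no overlap. Hsp90b1, the ER member of the HSP90 family, had 474, 409 and 482 CPM with 393P cells, against 432, 299 and 336 CPM in CAFs alone. Xbp1 had 70.4, 60.3 and 55.4 CPM with 393P cells, against 63.8, 62.1 and 42.9 CPM in CAFs alone (0.14 ± 0.21, adjusted p = 0.787, edgeR). Atf6 had 131, 136 and 121 CPM with 393P cells, against 94.8, 99.1 and 88.9 CPM in CAFs alone, did not overlap and was not called (0.46, adjusted p = 0.108, edgeR). Edem1, a lectin that hands misfolded glycoproteins to degradation, had 81.6, 56.3 and 50.1 CPM with 393P cells, against 84.4, 63.4 and 55.4 CPM in CAFs alone, and was not called.

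In sums over the lists the contrast between ATF4 amino acid genes and ER chaperone genes was visible in each library. The 14 ATF4 amino acid genes summed to 586.4, 712.9 and 590.3 CPM with 393P cells, against 866, 967.4 and 1006 CPM in CAFs alone. The 10 ER chaperone genes summed to 1629, 1596 and 1680 CPM with 393P cells, against 1506, 1345 and 1290 CPM in CAFs alone. The ratio of the first sum to the second was 0.36, 0.447 and 0.351 with 393P cells, against 0.575, 0.719 and 0.78 in CAFs alone, so that no library of either group lay within the range of the other. Abundant genes weigh most in these sums, such as Slc38a2 (268, 277 and 272 CPM with 393P cells) and Hsp90b1 (474, 409 and 482 CPM), neither of them called. With each gene weighted equally, as the mean of log2 (CPM + 1), amino acid minus ER levels were -1.58, -1.21 and -1.94 with 393P cells. They were -1.03, -0.66 and -0.43 in CAFs alone, again without overlap, although the ER means by themselves overlapped. Summed fibroblast markers moved with this contrast, at 7120 to 8530 CPM with 393P cells against 3950 to 6650 CPM in CAFs alone. The log2 changes of the 8 fibroblast markers tested ran from -2.04 to 2.12. Leukocyte markers moved too, at 5.43 to 21.2 CPM with 393P cells against 24.3 to 29.9 CPM in CAFs alone. So did carcinoma markers, at 19 to 95.8 CPM with 393P cells against 7.09 to 13.2 CPM in CAFs alone. Of these lists, 1 of 7 leukocyte and 0 of 16 carcinoma markers had enough counts to be tested. The part of all these markers in the result was not tested.

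With 344SQ cells, 1 of the 33 genes rose and 1 fell, against 3.48% of all genes higher and 2.36% lower than in CAFs alone. Slc1a4 had 24.7, 30.3 and 24.3 CPM with 344SQ cells, against 67.2, 47.6 and 57.5 CPM in CAFs alone, and fell by 1.14 ± 0.28 (SE, n = 3 each, adjusted p = 0.00937, edgeR). Dnajb9, an ER co-chaperone of BiP known as a target of XBP1, had 90.5, 107 and 71.8 CPM with 344SQ cells, against 54.3, 52.9 and 42.9 CPM in CAFs alone, and rose by 0.83 ± 0.22 on the log2 scale (SE, adjusted p = 0.0162, edgeR). Neither gene's groups overlapped. The calls were close to the threshold. Slc1a4 had an adjusted p of 0.0528 without replicate 3 of the 344SQ group and 0.0671 without replicate 1 of CAFs alone, and Dnajb9 had 0.103 without replicate 2 of the 344SQ group and 0.123 without replicate 3 of CAFs alone.

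The medians with 344SQ cells were -0.39 over the 12 ATF4 amino acid genes and 0.35 over the 9 ER chaperone genes, of which 8 were above 0. Hspa5 had 437, 353 and 426 CPM with 344SQ cells, with a log2 change of 0.36 ± 0.15 (adjusted p = 0.215, edgeR). Atf4, at 130, 139 and 136 CPM, lay within the range of CAFs alone (0.06 ± 0.17, adjusted p = 0.909), and Ddit3 (10.3, 17 and 22.4 CPM), Asns (7.2, 23 and 14.9 CPM) and Xbp1 (69.9, 81.2 and 62.5 CPM) were not called either. Ppp1r15a, the GADD34 subunit that helps remove phosphate from eIF2, had 107, 76.4 and 106 CPM with 344SQ cells, against 76.7, 96.5 and 94.1 CPM in CAFs alone. Aldh18a1 had 68.9, 48.5 and 56.9 CPM with 344SQ cells, Shmt2 had 42.2, 50.9 and 38.2 CPM, Atf6 had 118, 138 and 84.9 CPM and Edem1 had 64.8, 54.6 and 61.6 CPM, none of them called against the CAFs-alone values above. Vldlr, at 63.8, 90.9 and 64.4 CPM, passed only under some alternatives, such as without replicate 2 of the 344SQ group (adjusted p = 0.0452, edgeR) or replicate 2 of CAFs alone (0.0314). Psph had 13.4, 12.1 and 12.1 CPM with 344SQ cells, against 5.17, 6.61 and 8.36 CPM in CAFs alone. Its groups did not overlap, and it was not called. Chac1 had 3, 13 and 8 counts with 344SQ cells. The ATF4 amino acid genes summed to 731.1, 994.1 and 816.3 CPM with 344SQ cells, which overlaps the 866 to 1006 CPM of CAFs alone, and their ratio to the ER chaperone sum was 0.402, 0.668 and 0.491 with 344SQ cells, against 0.575, 0.719 and 0.78 in CAFs alone. Leukocyte markers moved with this comparison too, at 11.6 to 20.1 CPM with 344SQ cells against 24.3 to 29.9 CPM in CAFs alone. So did carcinoma markers, at 13.8 to 27.5 CPM with 344SQ cells against 7.09 to 13.2 CPM in CAFs alone. Fibroblast markers overlapped, at 4760 to 5110 CPM with 344SQ cells against 3950 to 6650 CPM in CAFs alone. The part of the leukocyte and carcinoma markers in the result was not tested.

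Set directly against aggregates with 393P cells, those with 344SQ cells had 2 genes higher and 0 lower, against 2.21% of all genes higher and 1.94% lower. Dnajb9 had 90.5, 107 and 71.8 CPM with 344SQ cells, against 65.7, 42.8 and 50.1 CPM with 393P cells, and was higher by 0.76 ± 0.21 (SE, adjusted p = 0.0361, edgeR) with no overlap. Nupr1, a small stress-induced chromatin protein, had 28.8, 58.2 and 64.4 CPM with 344SQ cells, against 15, 31.7 and 23 CPM with 393P cells. It was higher by 1.10 ± 0.31 (SE, adjusted p = 0.0412, edgeR), although the lowest library with 344SQ cells lay below the highest with 393P cells. Both calls depended on single libraries. The adjusted p of Nupr1 was 0.17 and 0.277 without replicates 2 and 3 of the 344SQ group and 0.222 and 0.0974 without replicates 1 and 3 of the 393P group, that of Dnajb9 was 0.0969 and 0.2 without replicates 1 and 2 of the 344SQ group and 0.227 and 0.105 without replicates 2 and 3 of the 393P group, and DESeq2 gave 0.127 and 0.116. Herpud1, a membrane protein of ER-associated degradation, had 30.8, 35.2 and 26.1 CPM with 344SQ cells, against 6.57, 15.1 and 21.9 CPM with 393P cells. It did not overlap and was not called (1.08 ± 0.35, adjusted p = 0.0834, edgeR), but passed without replicate 3 of the 393P group (1.45, adjusted p = 0.0253). In the chamber, given below, Herpud1 lay in the other direction between the lines. Slc3a2 (121, 131 and 186 CPM with 344SQ cells) and Slc38a2 (337, 496 and 324 CPM) were not called against the 393P values above. Without replicate 2 of the 393P group Psat1 passed as well, as higher with 344SQ cells (1.51, adjusted p = 0.0422, edgeR).

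**Figure D2:**
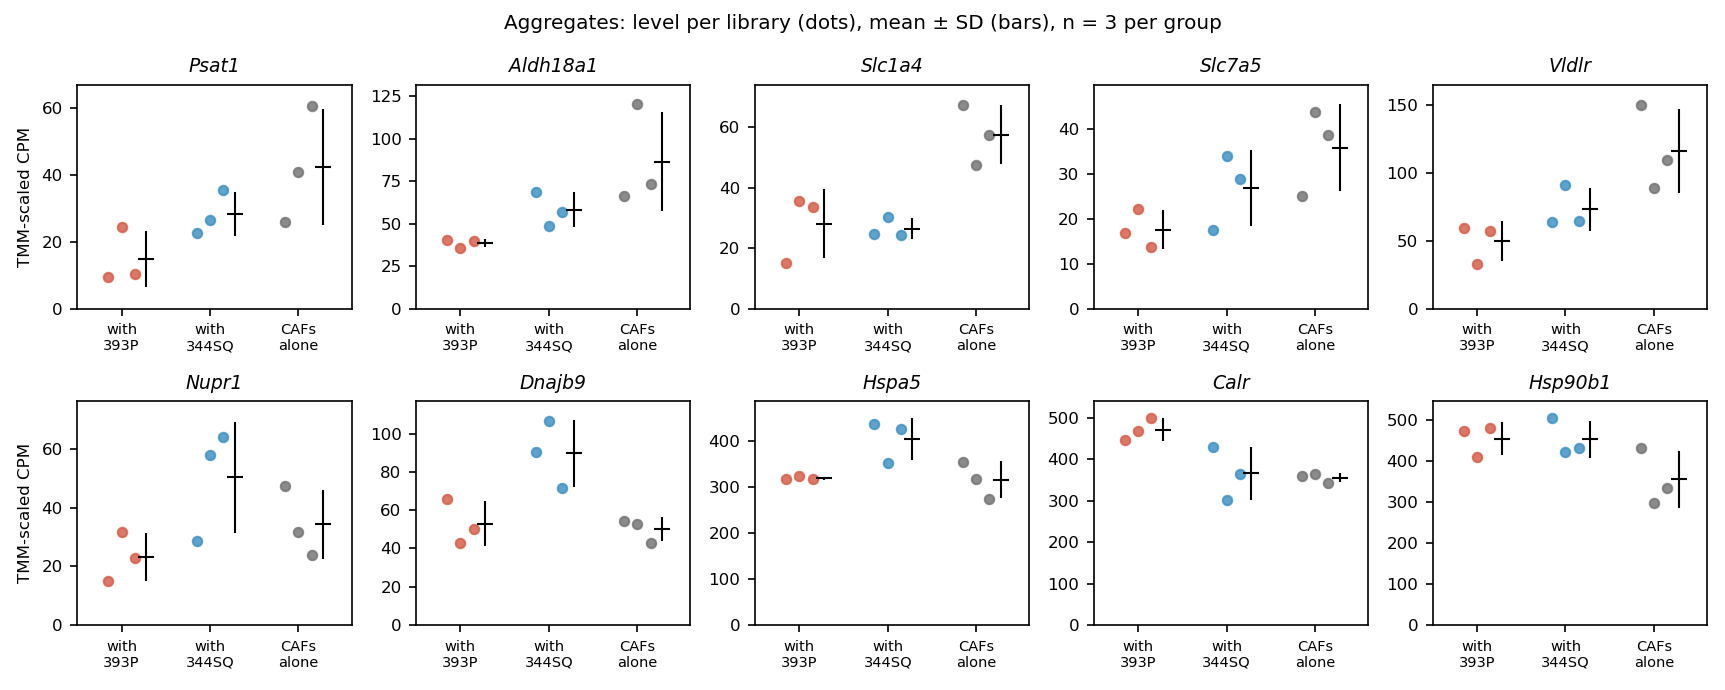
Levels of 10 stress response genes in the aggregates, in TMM-scaled CPM (vertical axes), for CAFs with 393P cells, with 344SQ cells and alone; points are the 3 libraries and bars the mean ± SD. Psat1, Aldh18a1, Slc1a4, Slc7a5 and Vldlr lie lower with 393P cells than in CAFs alone, while Dnajb9 lies at 71.8 to 107 with 344SQ cells against 42.9 to 54.3 in CAFs alone.

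In the Boyden chamber, 15 of the 38 genes fell with 344SQ cells and 0 rose, against 7.44% of all 14040 genes lower and 7.43% higher than in CAFs alone. The 15 comprised 5 of 9 ATF4 regulators and effectors (median log2 change -0.28), 7 of 14 ATF4 amino acid genes (median -0.22, all 14 below 0) and 3 of 10 ER chaperone genes (median -0.14). With 393P cells 13 genes fell and 1 rose, against 7.96% of all genes lower and 7.68% higher. These were 4 regulators and effectors lower (median -0.17), 6 amino acid genes lower and 1 higher (median -0.12), and 3 ER chaperone genes lower (median -0.11). None of the 5 regulators and degradation factors of the unfolded protein response passed with either line. Both comparisons use the same 5 CAFs-alone replicates, so their values are given side by side without a test of likeness. Every change that passed among these genes was smaller than 1 on the log2 scale. With the first technical library of each replicate alone, 5 genes passed with each line, and with counts thinned to the smallest sum Atf5 and Creld2 missed the threshold with 344SQ cells (adjusted p = 0.0526 and 0.0529) and Slc1a4 with 393P cells (0.0953). Thinning also gave a call of Ppp1r15a as lower with 344SQ cells (adjusted p = 0.0117, edgeR).

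Chac1 had 39.6, 48.8, 36.3, 36.1 and 45.3 CPM with 344SQ cells and 48, 49.1, 53.6, 49.7 and 47.8 CPM with 393P cells, against 73.2, 55.5, 65.7, 82.3 and 68.8 CPM in CAFs alone. Every library with cancer cells lay below the lowest of CAFs alone. Chac1 fell by 0.74 ± 0.10 with 344SQ cells (SE, n = 5 each, adjusted p = 2.75e-06, edgeR) and by 0.48 ± 0.09 with 393P cells (adjusted p = 0.000728). Ddit3 had 27, 37.7, 27.1, 22.9 and 29.3 CPM with 344SQ cells and 31.3, 32.1, 36.2, 28.3 and 30 CPM with 393P cells, against 45.3, 41.2, 44.5, 50 and 48.7 CPM in CAFs alone. It fell by 0.67 ± 0.10 with 344SQ cells (adjusted p = 3.08e-05, edgeR) and by 0.54 ± 0.10 with 393P cells (adjusted p = 0.000367), again with no overlap. Nupr1 (chromosome 7, positions 126623249 to 126630861, mm10) had 92.4, 110, 96.5, 99.2 and 96.9 CPM with 344SQ cells and 105, 99.1, 110, 101 and 109 CPM with 393P cells, against 146, 131, 141, 129 and 136 CPM in CAFs alone. It fell by 0.46 ± 0.06 with 344SQ cells (adjusted p = 4.08e-06, edgeR) and by 0.38 ± 0.06 with 393P cells (adjusted p = 9.59e-05), with a gap of more than 15 CPM between the groups.

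Trib3, Ppp1r15a and Atf5 each passed with 1 line in the full fit. Trib3, a pseudokinase that restrains ATF4, had 27, 28.3, 29, 30.2 and 20.4 CPM with 344SQ cells, against 35.6, 34.3, 34.6, 41.6 and 32.3 CPM in CAFs alone, and fell by 0.40 ± 0.09 (adjusted p = 0.00383, edgeR). With 393P cells it had 34.1, 31.8, 31.1, 30.4 and 32.9 CPM and was not called. Ppp1r15a had 36.7, 34.9, 33.7, 33 and 29.1 CPM with 393P cells, against 41.7, 40.6, 50.1, 51.5 and 43.4 CPM in CAFs alone, and fell by 0.44 ± 0.08 (adjusted p = 0.0006, edgeR). With 344SQ cells Ppp1r15a had 36.3, 42.5, 36.7, 36.9 and 39.9 CPM and was not called in the full fit. It passed there as lower with thinned counts (adjusted p = 0.0117, edgeR) and without the count filter (0.0352). The same held without replicate 2 of the 344SQ group (0.024) and without replicate 1 or 2 of CAFs alone (0.0419 and 0.0279). Neither gene passed in the direct comparison of the lines. Atf5, a transcription factor translated under eIF2 phosphorylation, fell by 0.28 ± 0.08 with 344SQ cells (adjusted p = 0.0221, edgeR), but had an adjusted p of 0.0608 and 0.0683 without replicates 1 and 5 of that group. Atf4 had 170, 201, 175, 195 and 200 CPM with 344SQ cells and 188, 177, 189, 199 and 194 CPM with 393P cells, against 219, 188, 192, 222 and 201 CPM in CAFs alone. Its ranges overlapped, with log2 changes of -0.12 ± 0.06 (adjusted p = 0.227, edgeR) and -0.11 (adjusted p = 0.26).

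Amino acid carriers made up most of the amino acid genes that fell. Slc7a5 had 119, 154, 116, 110 and 118 CPM with 344SQ cells and 143, 144, 138, 143 and 148 CPM with 393P cells, against 191, 154, 182, 187 and 171 CPM in CAFs alone. It fell by 0.52 ± 0.08 with 344SQ cells (adjusted p = 2.36e-05, edgeR), where replicate 2 reached the lowest library of CAFs alone, and by 0.31 ± 0.07 with 393P cells (adjusted p = 0.00614). Slc3a2 had 231, 275, 202, 205 and 203 CPM with 344SQ cells and 210, 251, 227, 225 and 244 CPM with 393P cells, against 303, 271, 261, 298 and 278 CPM in CAFs alone. It fell by 0.33 ± 0.08 with 344SQ cells (adjusted p = 0.00319, edgeR) and by 0.29 ± 0.08 with 393P cells (adjusted p = 0.0108). Both chains of LAT1 were thus lower with both lines. Slc1a4 had 45.9, 40.8, 42.7, 31.7 and 42 CPM with 344SQ cells and 51.2, 52.4, 48.7, 48.1 and 47.8 CPM with 393P cells, against 55.1, 57.4, 62.6, 65 and 57 CPM in CAFs alone. It fell by 0.55 ± 0.08 with 344SQ cells (adjusted p = 2.29e-05, edgeR) and by 0.26 ± 0.08 with 393P cells (adjusted p = 0.0222). The second of these calls was lost without replicate 5 of the 393P group (adjusted p = 0.055) and without replicate 4 of CAFs alone (0.0776). Slc6a9, the glycine carrier GlyT1, had 26.8, 42, 27.9, 25.6 and 27.7 CPM with 344SQ cells and 33.2, 24.8, 33.4, 29.8 and 31.4 CPM with 393P cells, against 43.4, 34, 40.3, 47.1 and 39.9 CPM in CAFs alone. It fell by 0.44 ± 0.12 with 344SQ cells (adjusted p = 0.0116, edgeR) and by 0.42 ± 0.11 with 393P cells (adjusted p = 0.0118). Slc7a1 had 163, 148, 158, 174 and 157 CPM with 344SQ cells, against 174, 184, 200, 220 and 180 CPM in CAFs alone, and fell by 0.26 ± 0.06 (adjusted p = 0.00642, edgeR). Slc38a2 had 438, 432, 442, 459 and 446 CPM with 344SQ cells and 419, 447, 412, 430 and 426 CPM with 393P cells, against 405, 483, 465, 448 and 444 CPM in CAFs alone, and was called with neither line.

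The synthesis genes were split. Mthfd2, the mitochondrial folate enzyme next to SHMT2, had 52.8, 64.9, 61.9, 58.8 and 58.4 CPM with 344SQ cells and 66.9, 69.9, 71.6, 63.3 and 69.7 CPM with 393P cells, against 81.1, 74.5, 83.9, 84.8 and 75.4 CPM in CAFs alone. It fell by 0.43 ± 0.07 with 344SQ cells (adjusted p = 5.14e-05, edgeR) and by 0.23 ± 0.07 with 393P cells (adjusted p = 0.018), the second call being lost without replicate 4 of the 393P group (0.0555) or replicate 4 of CAFs alone (0.0627). Phgdh, the first enzyme of serine synthesis, had 67.3, 86.8, 54, 67.3 and 81.4 CPM with 344SQ cells and 70.7, 61.4, 86.8, 75.2 and 73.6 CPM with 393P cells, against 108, 75.9, 89.1, 98.9 and 89.1 CPM in CAFs alone. It was called lower with both lines (-0.37 ± 0.11, adjusted p = 0.0214, and -0.33 ± 0.10, adjusted p = 0.0355, edgeR), but its groups overlapped. The call with 344SQ cells was lost when replicate 1, 3 or 4 of that group or replicate 1 or 4 of CAFs alone was left out (adjusted p = 0.0527 to 0.0789), and the call with 393P cells when replicate 1, 2, 4 or 5 of that group or replicate 1, 4 or 5 of CAFs alone was left out (0.0547 to 0.114).

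Psat1, the enzyme after PHGDH in the same pathway, moved the other way. It had 1010, 1140, 1140, 1120 and 1220 CPM with 393P cells, against 939, 939, 921, 853 and 855 CPM in CAFs alone, and rose by 0.32 ± 0.07 (adjusted p = 0.00175, edgeR) with no overlap. With 344SQ cells it had 838, 943, 810, 1010 and 796 CPM, on both sides of CAFs alone, and was not called. Asns had 129, 168, 134, 134 and 149 CPM with 344SQ cells and 157, 141, 152, 155 and 153 CPM with 393P cells, against 159, 156, 158, 165 and 154 CPM in CAFs alone. It passed the test with 344SQ cells only when replicate 2, the library of 168 CPM, was left out (-0.22, adjusted p = 0.011, edgeR), against -0.15 ± 0.07 and 0.136 with all 5. Shmt2, Psph, Aldh18a1 and Pycr1 were called with neither line.

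Of the ER chaperones, Hyou1, a nucleotide exchange factor for BiP, had 97.9, 98.2, 86.3, 85.7 and 94.3 CPM with 344SQ cells and 87.1, 91.9, 84.9, 86.6 and 89.1 CPM with 393P cells, against 109, 108, 108, 110 and 104 CPM in CAFs alone. It fell by 0.22 ± 0.06 with 344SQ cells (adjusted p = 0.0102, edgeR) and by 0.29 ± 0.06 with 393P cells (adjusted p = 0.00086), and no library with cancer cells reached the range of CAFs alone. Creld2, a disulfide isomerase-like ER protein, had 30.8, 30, 36.3, 31 and 27 CPM with 344SQ cells and 28.2, 30.2, 31, 31 and 30.3 CPM with 393P cells, against 38, 40.3, 39.1, 36.7 and 35.2 CPM in CAFs alone. It fell by 0.29 ± 0.08 (adjusted p = 0.0142, edgeR) and by 0.33 ± 0.08 (adjusted p = 0.00413). Manf, a secreted ER stress protein, had 64.6, 73.4, 61.1, 61.2 and 61.5 CPM with 344SQ cells and 66.5, 57.7, 62.6, 63.4 and 74.3 CPM with 393P cells, against 81.8, 70.3, 76.7, 73.4 and 79.1 CPM in CAFs alone. It fell by 0.24 ± 0.07 with 344SQ cells (adjusted p = 0.0274, edgeR) and by 0.23 ± 0.07 with 393P cells (adjusted p = 0.0303). The Manf ranges overlapped, and the calls were lost without any 1 of replicates 1, 3, 4 and 5 of the 344SQ group, or 2, 3 and 4 of the 393P group, or 1 and 5 of CAFs alone (adjusted p = 0.0541 to 0.0942).

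The most abundant chaperones did not pass. Hspa5 had 612, 665, 633, 581 and 564 CPM with 344SQ cells and 575, 672, 551, 521 and 602 CPM with 393P cells, against 584, 736, 682, 669 and 683 CPM in CAFs alone. Its log2 changes were -0.13 ± 0.07 (adjusted p = 0.215, edgeR) and -0.20 ± 0.07 (adjusted p = 0.0527), and the second passed without replicate 2 of the 393P group (0.0151), without replicate 1 of CAFs alone (0.0196) and with DESeq2 (0.0366). Hsp90b1 had 1500, 1420, 1620, 1610 and 1460 CPM with 344SQ cells and 1550, 1790, 1560, 1570 and 1680 CPM with 393P cells, against 1300, 1760, 1730, 1480 and 1590 CPM in CAFs alone. Calr had 1070, 963, 1080, 1250 and 1090 CPM with 344SQ cells and 1070, 1030, 1100, 1180 and 1190 CPM with 393P cells, against 1180, 1180, 1270, 1240 and 1190 CPM in CAFs alone. Both overlapped between the groups and were called with neither line. Xbp1 had 64.8, 70.8, 61.7, 61.6 and 70.4 CPM with 344SQ cells and 61.4, 58.2, 65.8, 65.3 and 66.4 CPM with 393P cells, against 69.5, 65.9, 67.6, 73.5 and 70.7 CPM in CAFs alone, and was not called. Atf6 had 173, 190, 175, 190 and 159 CPM with 344SQ cells and 180, 196, 184, 177 and 191 CPM with 393P cells, against 175, 204, 203, 204 and 198 CPM in CAFs alone. Sel1l, the adaptor of the HRD1 degradation complex, had 97.9, 98.4, 115, 111 and 101 CPM with 344SQ cells and 102, 110, 98, 109 and 119 CPM with 393P cells, against 103, 121, 119, 116 and 107 CPM in CAFs alone. Neither passed the test with either line. Fibroblast markers summed to 6730 to 7460 CPM with 344SQ cells and 7420 to 7790 CPM with 393P cells, against 8690 to 9140 CPM in CAFs alone, and endothelial markers to 6.46 to 10.6 CPM with 344SQ cells and 7.6 to 11 CPM with 393P cells, against 13.1 to 17.9 CPM in CAFs alone. Both sums thus moved with the groups as the stress genes did. Of the fibroblast markers, 7 of the 8 tested had a log2 change below 0 with each line. Of the 5 endothelial markers, only 1 had enough counts to be tested. The part of these markers in the result was not tested. The carcinoma markers overlapped between the groups, at 29.4 to 51.4 CPM with 344SQ cells and 17.5 to 89.4 CPM with 393P cells, against 25.4 to 39.6 CPM in CAFs alone.

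Between the lines in the chamber, 344SQ cells went with 3 lower and 0 higher genes of the 38 when set against 393P cells, beside 1.36% of all genes lower and 2.52% higher. All 3 were ATF4 amino acid genes. Psat1 was lower by 0.36 ± 0.07 on the log2 scale (SE, n = 5 each, adjusted p = 0.00141, edgeR), and its groups, given above, touched at 1010 CPM without overlapping. Psph, the last enzyme of serine synthesis, had 167, 135, 162, 203 and 158 CPM with 344SQ cells, against 189, 191, 196, 236 and 230 CPM with 393P cells. It was lower by 0.34 ± 0.08 (adjusted p = 0.0194, edgeR), with ranges that overlapped, and missed the threshold without replicate 5 of the 344SQ group (0.0526) or replicate 4 or 5 of the 393P group (0.0891 and 0.0753). Slc1a4 stood at the threshold, with -0.29 ± 0.08 (adjusted p = 0.0497, edgeR) and 0.0534 to 0.0981 without any 1 of replicates 2 to 5 of the 344SQ group or of the 5 replicates with 393P cells. Chac1 did not pass this comparison (-0.27 ± 0.10, adjusted p = 0.151). Herpud1 had 24.9, 29, 28.6, 35.4 and 31 CPM with 344SQ cells, against 33.2, 36.3, 37.6, 40 and 45.3 CPM with 393P cells. It was not called in the full fit. Under several alternatives it passed as lower, such as DESeq2 (-0.38, adjusted p = 0.0388) and edgeR with a replicate block (-0.37, adjusted p = 0.0219).

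**Figure D3:**
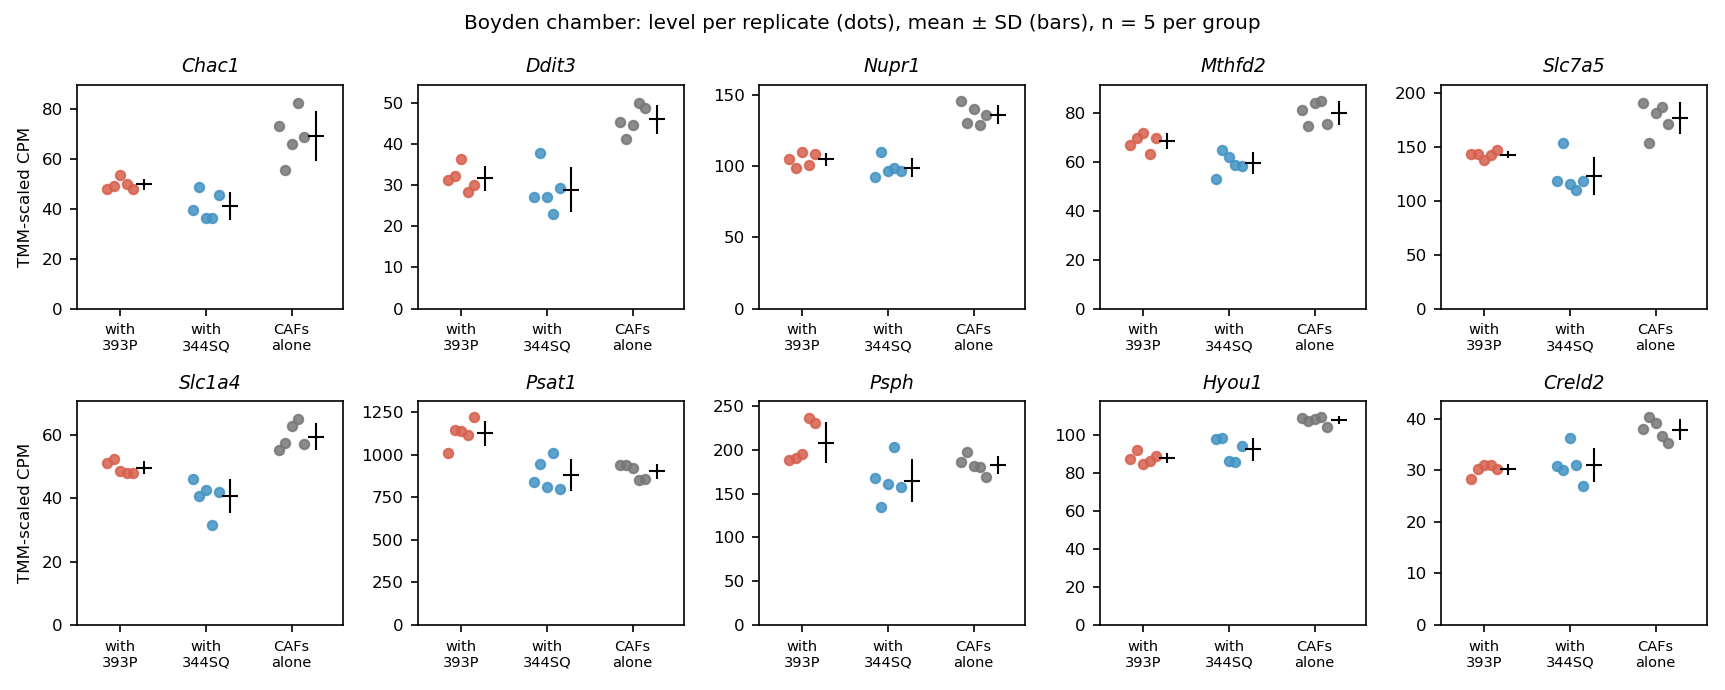
Levels of 10 stress response genes in the Boyden chamber, in TMM-scaled CPM (vertical axes), for CAFs with 393P cells, with 344SQ cells and alone; points are the 5 biological replicates and bars the mean ± SD. Chac1, Ddit3, Nupr1 and Hyou1 lie lower with either line than in CAFs alone without overlap, and Psat1 is higher with 393P cells, at 1010 to 1220 against 853 to 939 in CAFs alone.

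Whether the response to a line differed between the formats was tested in a joint fit of the aggregates and the Boyden sums, as the log2 change in the aggregates minus that in the chamber. This fit shares 1 estimate of the spread per gene, although the coefficient of variation was 16.2% in the aggregates and 8.58% in the Boyden sums. The SE of the Psat1 difference with 393P cells, for example, was below that of its change in the aggregates alone. The p-values of the differences may therefore be too small. For 393P cells 5 genes had a higher difference and 3 a lower one, against 5.32% and 3.66% of all 15193 genes. The 3 lower ones were Psat1 (-1.68 ± 0.31, adjusted p = 0.000129, edgeR), Aldh18a1 (-1.04 ± 0.22, adjusted p = 0.00102) and Vldlr (-1.05 ± 0.21, adjusted p = 0.000562). Psat1 thus had opposite calls in the 2 formats, lower in the aggregates and higher in the chamber. Of the 5 higher ones, 4 were ER chaperone genes and 1 was Atf6. Calr (0.59 ± 0.14, adjusted p = 0.00313), Atf6 (0.62 ± 0.16, adjusted p = 0.00746) and Manf (1.07 ± 0.28, adjusted p = 0.00775) had the smallest p among them. Calr and Atf6 passed in neither format alone with 393P cells, and Manf was lower in the chamber only. Pdia6 (0.84 ± 0.25, adjusted p = 0.0268) and Hyou1 (0.49 ± 0.15, adjusted p = 0.0283) were closer to the threshold. The median difference was -0.51 over the ATF4 amino acid genes and 0.34 over the ER chaperone genes.

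The calls for Psat1, Aldh18a1, Vldlr, Calr and Atf6 were kept in every fit that left out a replicate. Manf lost its call without replicate 2 of the 393P aggregates (0.70, adjusted p = 0.18). Pdia6 lost it without replicate 2 or 3 of the 393P aggregates or replicate 3 of CAFs alone (adjusted p = 0.0747, 0.0609 and 0.193), and Hyou1 without replicate 1 or 2 of the 393P aggregates or replicate 1 or 3 of CAFs alone (0.0561, 0.0739, 0.166 and 0.0619). Hyou1 also lost it with RLE size factors (0.0556) and without rRNA-like and mitochondrial genes (0.072). The Chac1 difference of -2.60 (SE 1) rests on 2 counts in all with 393P cells and was not called (adjusted p = 0.101).

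For 344SQ cells 6 genes had a higher difference and 0 a lower one, against 2.61% and 2.13% of all genes. Of these, 3 were ER chaperone genes, namely Dnajb9 (1.01 ± 0.19, adjusted p = 0.000318, edgeR), Hspa5 (0.54 ± 0.15, adjusted p = 0.0208) and Hyou1 (0.54 ± 0.15, adjusted p = 0.0222). The others were Nupr1 (1.02 ± 0.26, adjusted p = 0.0101), Slc3a2 (0.70 ± 0.18, adjusted p = 0.0107) and Sel1l (0.63 ± 0.19, adjusted p = 0.0444). Dnajb9 kept its call in every fit that left out a replicate. Each of the other 5 lost it without replicate 3 of the 344SQ aggregates, with an adjusted p of 0.157 for Nupr1, 0.182 for Slc3a2 (log2 difference 0.46), 0.0823 for Hspa5, 0.0987 for Hyou1 and 0.168 for Sel1l. Nupr1 also lost it without replicate 2 of the 344SQ aggregates (0.0529) or replicate 3 of CAFs alone (0.0953). Leaving out replicate 1 of the 344SQ aggregates, or replicate 3 of CAFs alone, gave 0.0772 and 0.124 for Hspa5, 0.0555 each for Hyou1, and 0.1 and 0.196 for Sel1l. Replicate 2 of CAFs alone carried Hspa5 (0.0546 without it) and Sel1l (0.156), replicate 1 of CAFs alone carried Hyou1 (0.144), and Sel1l also missed the threshold without any 1 of 6 Boyden replicates (0.0571 to 0.0689). The median difference was 0.48 over the ER chaperone genes and -0.23 over the ATF4 amino acid genes.

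**Figure D4:**
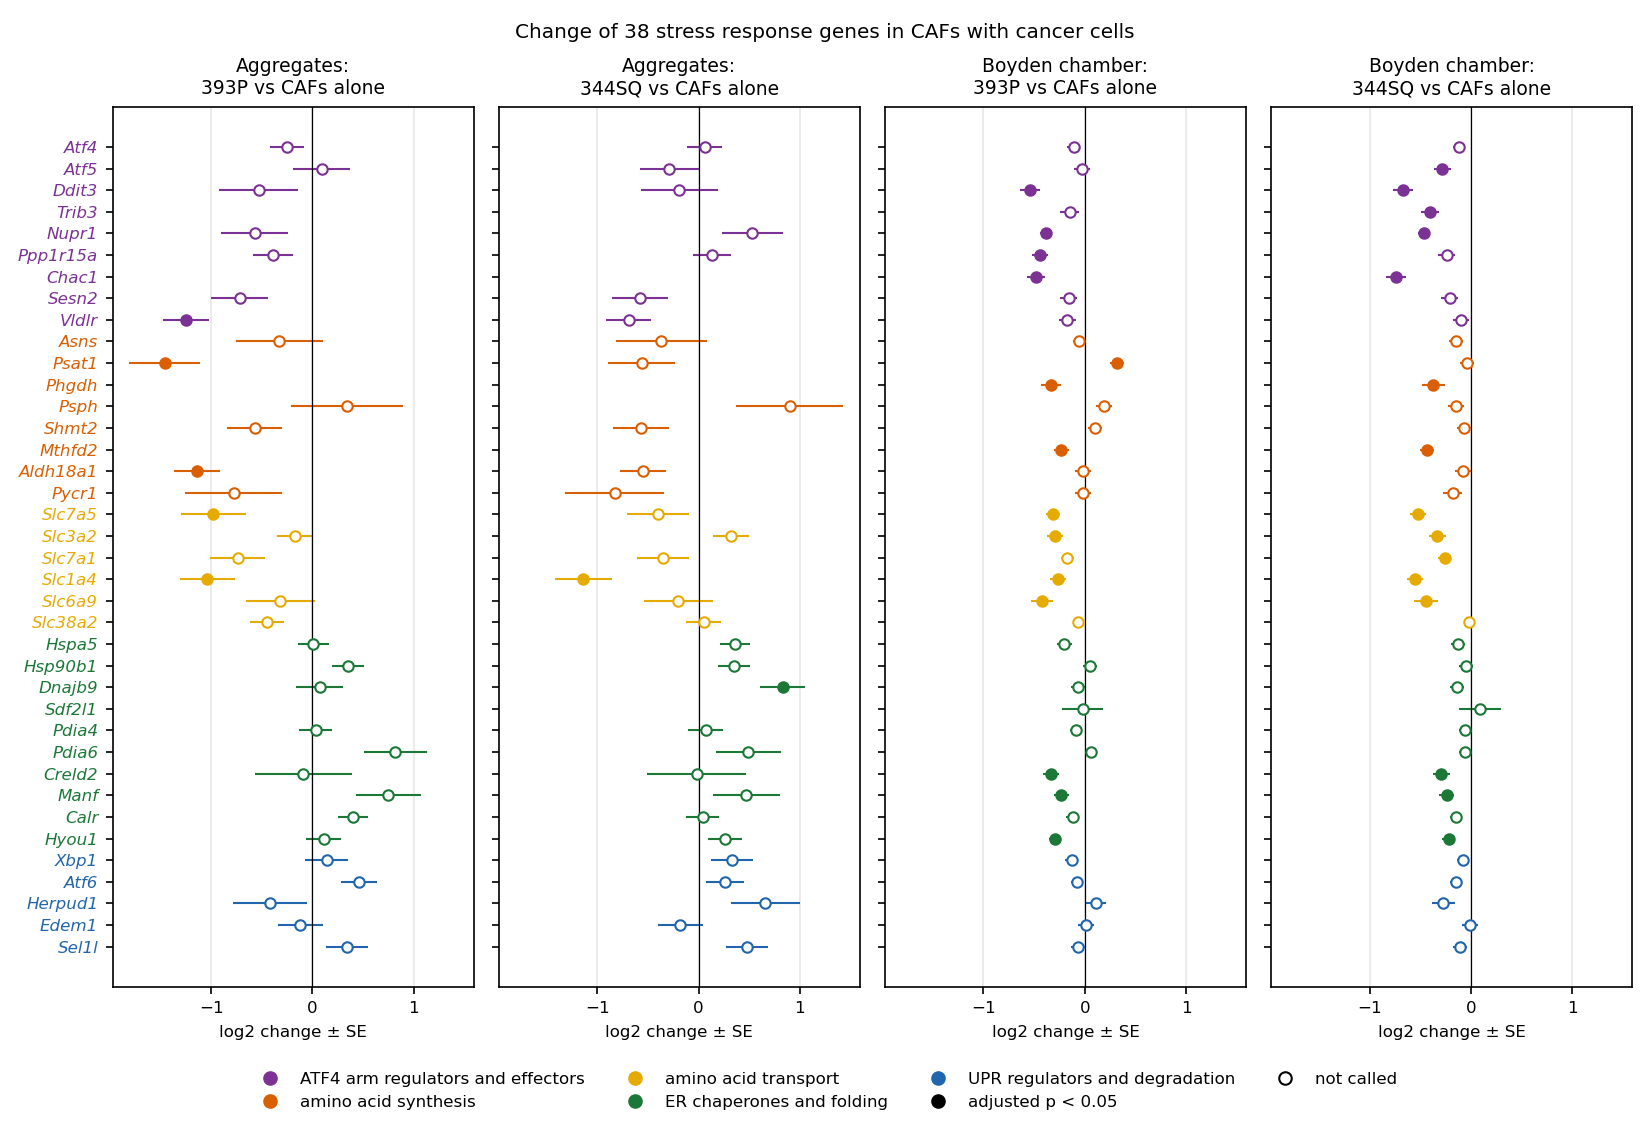
Log2 changes ± SE (horizontal axes) of the stress response genes (down the page, by role) with 393P or 344SQ cells against CAFs alone, in aggregates (left panels) and in the Boyden chamber (right panels). Filled points have an adjusted p under 0.05 in edgeR, and the 5 filled points with 393P cells in aggregates are Vldlr, Psat1, Aldh18a1, Slc7a5 and Slc1a4.

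Levels of these genes in CAFs alone also differed between the formats. In the joint fit, 25 of the 38 genes were lower and 6 higher in aggregates of CAFs alone than in CAFs alone in the chamber, against 37% of all genes lower and 28.4% higher. All 8 synthesis genes were lower, with a median log2 difference of -2.62, against -0.22 over all genes. The median was -0.40 over the carriers, -1.02 over the ER chaperone genes and -0.44 over the ATF4 regulators and effectors. Format, library preparation and table cannot be told apart in this comparison, which was added after the data had been seen. The share of rRNA-like genes, which moved with it, was 18.8% to 24.8% in the aggregates against 0.283% to 0.496% in the Boyden sums. The CPM given are scaled within each table, and the differences come from the joint fit, with its shared spread.

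Psat1 had 25.9, 41 and 60.6 CPM in aggregates, against 853 to 939 CPM (median 921) in the chamber, a log2 difference of -4.03 ± 0.17 (SE, 3 against 5, adjusted p = 1.14e-23, edgeR). Psph had 5.17, 6.61 and 8.36 CPM in aggregates, against 169 to 197 CPM in the chamber (-4.37 ± 0.25, adjusted p = 3.48e-19). Asns had 10.3, 35.7 and 14.6 CPM in aggregates, against 154 to 165 CPM in the chamber (-2.68 ± 0.21, adjusted p = 7.07e-15), and Mthfd2 had 6.03, 3.96 and 9.41 CPM in aggregates, against 74.5 to 84.8 CPM in the chamber (-3.18 ± 0.24, adjusted p = 1.37e-15). Chac1 was lower by 3.22 ± 0.31 in aggregates (adjusted p = 2.6e-12). Atf4 was much closer, with 128, 153 and 109 CPM in aggregates against 188 to 222 CPM in the chamber (-0.26 ± 0.11, adjusted p = 0.0366), and its call was lost with RLE size factors (0.126), without rRNA-like and mitochondrial genes (0.0526), without replicate 1 or 3 of the aggregates (0.0502 and 0.221) and without replicate 1, 4 or 5 of the chamber (0.0804, 0.088 and 0.051). Ppp1r15a was higher in aggregates by 1.36 on the log2 scale, with 76.7, 96.5 and 94.1 CPM in aggregates against 40.6 to 51.5 CPM in the chamber. Without replicate 1 of the aggregates the higher calls of Vldlr (0.25, adjusted p = 0.188), Slc1a4 (0.19, 0.407) and Edem1 (0.28, 0.185) and the lower call of Sesn2 (-0.44, 0.0528) were lost, as was that of Slc1a4 without replicate 3 (0.0881) and that of Hyou1 without replicate 2 (0.27, 0.0537).

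Per kilobase of exon, the highest genes in aggregates of CAFs alone were Calr at 124 ± 4.07 and Hsp90b1 at 88.1 ± 17 CPM per kb (SD, n = 3), followed by Hspa5 at 74.7 ± 9.57 and Pdia4 at 60 ± 7.78. The levels of Hsp90b1 and Hspa5 differed by less than the SD of Hsp90b1. In the chamber the order was Calr at 420 ± 13.6, Hsp90b1 at 390 ± 46.9, Psat1 at 212 ± 10.3 and Hspa5 at 159 ± 13 CPM per kb (SD, n = 5). Psat1 was thus among the highest there, whereas Psph, at 1.55 ± 0.369 CPM per kb, was the lowest of the 38 genes in aggregates of CAFs alone.

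**Figure D5:**
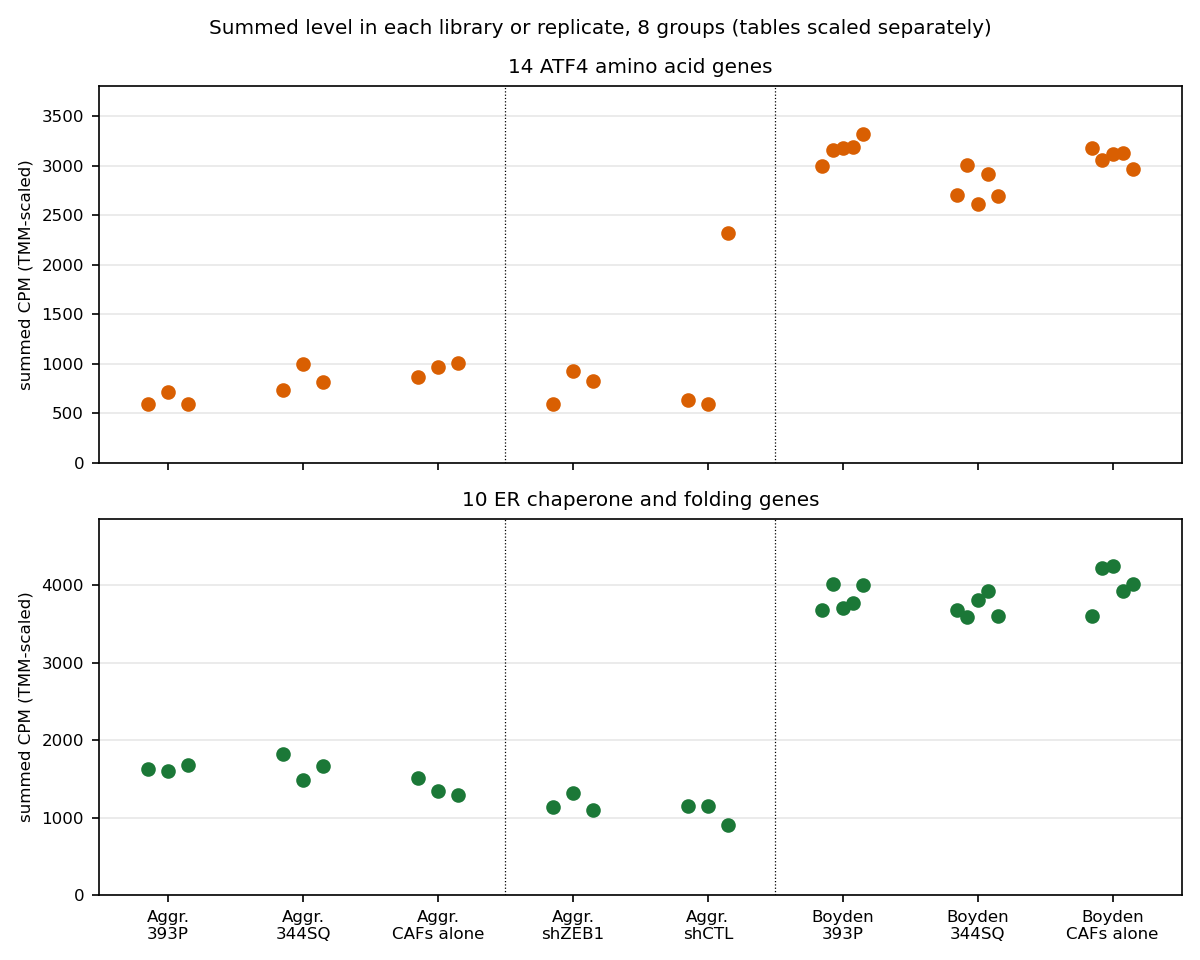
Summed TMM-scaled CPM of the 14 ATF4 amino acid genes and of the 10 ER chaperone genes (vertical axes) in each library or summed replicate (points) of the 8 groups. In the aggregates the amino acid sum is 586.4 to 712.9 with 393P cells against 866 to 1006 in CAFs alone, and among the shRNA libraries a single shCTL replicate reaches 2323.

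The shRNA against Zeb1 was expressed in the 344SQ cells, so Zeb1 in the sorted CAFs does not check the knockdown. Zeb1 had 144, 48.4 and 120 CPM in CAFs with shZEB1 cells, against 71.8, 105 and 50.3 CPM in CAFs with shCTL cells. Between these groups 0 of 7801 genes passed by edgeR, 0% higher and 0% lower, with 466 genes at an unadjusted p under 0.05 and 26 genes called by DESeq2. Of the 36 stress response genes tested, 0 passed by edgeR, 0 had an unadjusted p under 0.05 and 0 were called by DESeq2. Sdf2l1 and Creld2 had too few counts.

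The spread within these groups was wide for the amino acid genes. Asns had 22.8, 10.3 and 55.1 CPM with shZEB1 cells, against 13, 12.6 and 131 CPM with shCTL cells (log2 change -0.79 ± 0.91, adjusted p = 0.899, edgeR). Psat1 had 76.4, 89.5 and 80.7 CPM with shZEB1 cells, against 28, 13.4 and 133 CPM with shCTL cells, and Chac1 had 20.2, 16.1 and 6.41 CPM with shZEB1 cells, against 10.3, 15 and 74.5 CPM with shCTL cells. Replicate 3 of shCTL was the highest library of the table for each of these 3 genes. Its 14 ATF4 amino acid genes summed to 2323 CPM, against 631.5 and 588.7 CPM in the other shCTL libraries and 596.1, 921.3 and 824.6 CPM in the shZEB1 libraries. The median log2 change of these genes was -0.74, and it was 0.48 without shCTL replicate 3. That library also held the highest carcinoma marker sum, 1630 CPM, against 149 and 117 CPM in the other shCTL libraries and 140, 1280 and 573 CPM in the shZEB1 libraries, with 334 counts of Krt18, the epithelial keratin. The part of carcinoma RNA in its amino acid genes was not tested.

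Shmt2, Slc38a2 and Slc7a1 were also highest in that library, at 188, 442 and 397 CPM. Shmt2 had 53.1, 88 and 57.7 CPM with shZEB1 cells, against 43.7, 28.4 and 188 CPM with shCTL cells. Slc38a2 had 132, 255 and 154 CPM with shZEB1 cells, against 152, 255 and 442 CPM with shCTL cells, and Slc7a1 had 79, 73.4 and 133 CPM with shZEB1 cells, against 85.4, 35.5 and 397 CPM with shCTL cells. None of the 3 was called.

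The sums of ER genes lay closer together. The ER chaperone sum was 1131, 1322 and 1097 CPM with shZEB1 cells, against 1153, 1156 and 907.1 CPM with shCTL cells. Hspa5 had 158, 208 and 293 CPM with shZEB1 cells, against 329, 258 and 245 CPM with shCTL cells (-0.33 ± 0.42, adjusted p = 0.913, edgeR), and Xbp1 had 44.3, 58.7 and 67.9 CPM with shZEB1 cells, against 52.6, 58.3 and 97.7 CPM with shCTL cells. Hsp90b1 had 374, 465 and 332 CPM with shZEB1 cells, against 223, 303 and 276 CPM with shCTL cells. Calr had 272, 361 and 201 CPM with shZEB1 cells, against 281, 265 and 175 CPM with shCTL cells, and Atf6 had 129, 64.6 and 130 CPM with shZEB1 cells, against 117, 255 and 271 CPM with shCTL cells. None of these was called. The Hsp90b1 groups did not overlap, which with 3 libraries each describes the values and is not a test. Atf4 had 155, 251 and 253 CPM with shZEB1 cells, against 206, 119 and 539 CPM with shCTL cells, and Ddit3 had 36.9, 17.6 and 82 CPM with shZEB1 cells, against 64.9, 33.1 and 50.3 CPM with shCTL cells. Nupr1 had 57.1, 74.8 and 96.1 CPM with shZEB1 cells, against 111, 143 and 159 CPM with shCTL cells, which did not overlap and was not called (-0.86 ± 0.46, adjusted p = 0.799, edgeR).

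Further genes of the pathways were counted from wider lists. The 11 aminoacyl-tRNA synthetases measured, which charge transfer RNAs and are known ATF4 targets, had 0 calls in the aggregates with either line (medians -0.09 with 393P and 0.03 with 344SQ cells). Over all genes 5.41% were higher and 5.27% lower with 393P cells, and 3.48% and 2.36% with 344SQ cells. In the chamber 4 fell with 344SQ cells (median -0.17), against 7.44% of all genes, and 1 rose with 393P cells (median -0.04), against 7.68% of all genes. In CAFs alone 10 of the 11 were lower in aggregates than in the chamber (median -1.87), against 37% of all genes. Of the other ER folding, export and degradation genes, 1 of 32 rose in the aggregates with each line, against 5.41% of all genes with 393P cells and 3.48% with 344SQ cells. This was Ssr3, a subunit of the translocon-associated complex (0.71 ± 0.16, adjusted p = 0.00304, with 393P cells and 0.56 ± 0.16, adjusted p = 0.0373, with 344SQ cells, edgeR). In the chamber 4 of 34 fell and 1 rose with 344SQ cells, against 7.44% and 7.43% of all genes, and 9 fell and 1 rose with 393P cells, against 7.96% and 7.68%. Ero1l, the ER oxidase that renews disulfide isomerases, was higher with 344SQ than with 393P cells both in the aggregates (1.10 ± 0.22, adjusted p = 0.00147) and in the chamber (0.37 ± 0.07, adjusted p = 0.00119). Creb3l1, a membrane-bound transcription factor of the secretory pathway, fell in the chamber by 0.55 ± 0.10 with 344SQ cells (adjusted p = 0.000321) and by 0.92 ± 0.10 with 393P cells (adjusted p = 4.73e-07).

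Of the sensors and other ATF4 genes, 1 rose and 2 fell among 16 in the aggregates with 393P cells, against 5.41% of all genes higher and 5.27% lower. With 344SQ cells 0 of the 16 passed by edgeR, against 3.48% of all genes higher and 2.36% lower. In the chamber 1 rose and 2 fell among 21 with 344SQ cells, against 7.43% and 7.44% of all genes, and 2 rose and 0 fell with 393P cells, against 7.68% and 7.96%. Ddit4, the mTORC1 inhibitor REDD1, rose with 393P cells in aggregates (0.87 ± 0.21, adjusted p = 0.00527, edgeR), and in the chamber with 344SQ cells (1.01 ± 0.15, adjusted p = 1.7e-05) and with 393P cells (0.55 ± 0.15, adjusted p = 0.0108). In aggregates it was lower with 344SQ than with 393P cells (-0.77 ± 0.21, adjusted p = 0.0287). Gpt2, a mitochondrial alanine transaminase, fell by 1.42 ± 0.34 with 393P cells in aggregates (adjusted p = 0.00388). Heat shock genes of the cytosol and of mitochondria, which belong to neither response, had 2 of 8 lower in aggregates with 393P cells, against 5.27% of all genes. With 344SQ cells 0 of the 8 were called, against 3.48% of all genes higher and 2.36% lower. In the chamber 4 of 10 were lower with 344SQ cells, against 7.44% of all genes, and 1 was higher and 1 lower with 393P cells, against 7.68% and 7.96%.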

How the data were processed

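Total RNA of sorted mouse CAFs was sequenced in 60 libraries, deposited as 3 tables of raw counts per gene. Per the submitters' processing notes the authors used STAR, HTSeq and the build mm10. Tool versions, annotation and strand setting are not stated in the labels or file headers. Counts were analysed with edgeR 4.0.16 in R 4.3.3: filterByExpr, TMM scaling, 1 mean per group and 2-sided quasi-likelihood tests, with Benjamini-Hochberg adjustment over all genes tested and calls at an adjusted p under 0.05. The 3 technical libraries of a Boyden replicate were summed. SE is the log2 change divided by the root of the F statistic. Whether groups overlap describes the values and is not a test. CPM are scaled by TMM and list sums are of such CPM, while marker sums use total counts. Positions are from GENCODE M21 (GRCm38) and promoters from RefSeq (GRCm38.p6). Figures used matplotlib 3.10.9 in Python 3.11.15. The fit was tested on simulated data.

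All 38 genes could be named. Values in every library were given for up to 4 called genes per role and comparison, those with the smallest p, or for the 2 of highest level where none passed, and always for Chac1, Atf4, Ddit3, Asns, Hspa5 and Xbp1. From the wider lists up to 3 called genes with the smallest p were named per comparison. Genes given beyond these rules were chosen after their values were seen. The genes and lists were chosen with earlier results of these data known. Alternatives were DESeq2 1.42.0, RLE size factors, no filter, a replicate block, removal of rRNA-like and mitochondrial genes, only the 2 groups compared, the first technical library alone and leaving out each replicate. Chosen after seeing the data were leaving out replicates of the joint fit, the shRNA table without its libraries richest in carcinoma markers, thinned Boyden counts and the comparison of CAFs alone between formats.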

Additional observations from a re-analysis of the deposited data

Results flagged for a closer look

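Single replicates stood apart from the other 4 of their Boyden group in 9 of 114 gene and group combinations of the stress response genes by Dixon's test, which flags about 1 in 20 by chance. In the 344SQ group replicate 2 was the high library for Shmt2 (241 CPM, others 184 to 195), Slc7a5 (154 CPM, others 110 to 119), Slc6a9 (42 CPM, others 25.6 to 27.9) and Manf (73.4 CPM, others 61.1 to 64.6). In the 393P group replicate 2 was low for Asns (141 CPM, others 152 to 157) and Aldh18a1 (184 CPM, others 216 to 225), and replicate 1 was low for Creld2 (28.2 CPM, others 30.2 to 31). In CAFs alone replicate 1 was high for Shmt2 (228 CPM, others 202 to 208) and low for Atf6 (175 CPM, others 198 to 204).

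The change with a cancer line differed between aggregates and the Boyden chamber for 14 gene and line combinations, by the interaction in edgeR's joint fit with an adjusted p under 0.05. That fit shares the spread between the formats, so its p-values may be too small. With 393P cells the differences in log2 change, aggregates minus chamber, were -1.68 for Psat1, -1.05 for Vldlr and -1.04 for Aldh18a1, and 1.07 for Manf, 0.84 for Pdia6, 0.62 for Atf6, 0.59 for Calr and 0.49 for Hyou1. With 344SQ cells they were 1.02 for Nupr1, 1.01 for Dnajb9, 0.70 for Slc3a2, 0.63 for Sel1l, 0.54 for Hspa5 and 0.54 for Hyou1.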

How the results depend on the processing

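No result changed sign past the threshold under any alternative run, and 4985 values kept their side of it, while 142 lost a call, 68 gained one and 216 counts or values outside any call moved. With DESeq2 the calls among the stress response genes were 3 with 393P cells in aggregates (5 by edgeR), 0 between the lines in aggregates (2 by edgeR), and 26 genes of the shRNA table passed (0 by edgeR). Over all genes DESeq2 called 342 higher and 296 lower with 393P cells in aggregates (432 and 421 by edgeR). Between the lines in aggregates it called 130 higher and 127 lower (177 and 155 by edgeR). Without the count filter 90 genes of the shRNA table passed, and 6 stress response genes between the lines in the chamber (3 with it). Over all genes, 419 were higher and 343 lower between the lines in the chamber without the filter (354 and 191 with it). With the first technical library alone, which holds fewer counts, 500, 609 and 73 genes passed in the chamber for 344SQ, for 393P and between the lines (2087, 2195 and 545 in the sums), and 5, 5 and 0 stress response genes (15, 14 and 3). Leaving out both carcinoma-rich shRNA libraries gave 1 gene.
Without 1 replicate at a time the stress response genes called numbered 3 to 7 (393P), 1 to 3 (344SQ) and 0 to 2 (between lines) in aggregates, 12 to 18 (344SQ), 11 to 14 (393P) and 1 to 5 (between lines) in the chamber, 6 to 10 (393P) and 2 to 7 (344SQ) for the format differences, and 27 to 32 for CAFs alone between formats. Over all genes these fits called 625 to 770 (393P), 284 to 421 (344SQ) and 244 to 314 (between lines) in aggregates. In the chamber they called 1581 to 2774 (344SQ), 1581 to 2289 (393P) and 378 to 759 (between lines). For the format differences they called 1106 to 1380 (393P) and 565 to 797 (344SQ), and for CAFs alone between formats 8734 to 9757.
Same-numbered samples correlated by -0.30 to 0.26 in the chamber, within the -0.37 to 0.41 of other samples. In the aggregates they correlated by -0.03 to 0.07, within -0.08 to 0.08. The numbers thus showed no pairing in these formats. In the shRNA table the ranges were -0.03 to 0.13 and -0.15 to 0.08, and 3 of 6 best matches shared a number. Too few samples were there to settle pairing. With the replicate as a block the stress response genes called were 6, 2 and 2 in aggregates, 0 in the shRNA table and 14, 14 and 3 in the chamber, and 1 gene passed in the shRNA table. Over all genes the block fits called 441 higher and 429 lower (393P), 275 and 192 (344SQ) and 172 and 149 (between lines) in aggregates. In the chamber they called 872 and 895 (344SQ), 880 and 916 (393P) and 286 and 140 (between lines). Depth limits the aggregates, where 5 of the genes could not be tested.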
